A study of Mus musculus with 12 samples.

Results

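The H3K4me1 peak lists of WT and Kmt2d mutant mouse melanoma cells were set against each other. All peaks of both lists were taken, 15981 in WT and 5358 in the mutant, which are 21339 of the 173601 peaks in the 10 lists used from the series. The marks were mapped by chromatin immunoprecipitation and sequencing (ChIP-seq), with an input library of each genotype, which was not analysed here. Cells were cultured from tumours of the ears of iBIP mice, kept on a mixed FVB and B6 background. Mice of both groups carried Tyr-CreERT2 (a tamoxifen-dependent Cre driven by the tyrosinase promoter of pigment cells), Rosa26-rtta, TetO-BRAFV600E (an oncogenic BRAF switched on by doxycycline), PTENL/L and INK/ARFL/L. WT mice were KMT2D+/+ and mutant mice KMT2DL/L, and both received doxycycline and 1 uM of 4-OHT (4-hydroxytamoxifen) on the ears. The age of the mice and the number of animals or cultures behind each library are not given in the sources used here. The peaks are on the mouse build mm9, no annotation of that build was used, and so neither the deletion of Kmt2d nor the melanocytic identity of the cells was checked, and regions carry no gene names.

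KMT2D is a methyltransferase that places a single methyl group on lysine 4 of histone H3 at enhancers. H3K4me1 marks enhancers, both active and primed, and the shoulders of promoters, and enhancers that serve one gene often lie in groups. A peak is a stretch of read enrichment that passed the authors' threshold. Its score, which the authors deposited, reads as 10 times the −log10 of a p-value and rises with read depth as well as with enrichment. The lowest score was 90 in WT and 90.03 in the mutant, and the highest 2572 and 1307. Each genotype had 1 library, so differences are given without a test or a check between replicates, and a peak missing from a list means only that none passed the threshold. Read depth is unknown, and depth and genotype cannot be told apart. Intervals are exact 95% binomial intervals, or their order-statistic form for medians. They cover counting error only.

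The shortfall of H3K4me1 peaks in the mutant was spread over all 19 autosomes in nearly the same proportion. WT had 15974 autosomal H3K4me1 peaks and the mutant 5358, a ratio of 0.335 (0.325 to 0.346). Per chromosome the ratio ranged from 0.302 (0.268 to 0.339) on chromosome 7 to 0.396 (0.341 to 0.458) on chromosome 12. On 18 of the 19 chromosomes the interval held the autosomal ratio, and chromosome 12 was the exception. Of the autosomal WT peaks, 77% had no overlapping mutant peak. WT peaks with a mutant peak made up between 19.0% of the list on chromosome 16 and 25.9% on chromosome 19. No autosome kept or lost its peaks as a whole.

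Densities per Mb followed nearly the same order of chromosomes in both lists. The Mb of a chromosome were counted between the first and the last peak of any list. Chromosome 11 was the densest, with 11.8 WT and 4.15 mutant H3K4me1 peaks per Mb, and chromosome 19 came next, with 9.60 and 3.57. Chromosome 3 was the sparsest, with 3.88 and 1.41. The densest chromosome exceeded the sparsest 3.03-fold in WT and 2.94-fold in the mutant. Over the 19 autosomes the Spearman correlation of the densities was 0.96, given as a description. What sets the density of a chromosome was not tested.

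The chromosomes were less even once the WT list was limited to its 5358 strongest peaks, which makes the lists equally long but sets WT peaks with scores from 208.3 against mutant peaks from 90.03. The mutant then had 0.830 times (0.721 to 0.955) as many peaks as WT on chromosome 7 (366 against 441) and 1.30 times (1.06 to 1.61) as many on chromosome 13 (212 against 163). With a score of at least 200 in both lists, chromosome 13 instead had the lowest ratio of the autosomes, 0.126 (0.0777 to 0.194). The place of chromosome 13 thus depended on how the lists were limited. Chromosome 3 was also on the high side, with 218 mutant and 177 WT peaks. Chromosome 13 had the narrowest WT peaks of the autosomes, with a median of 1100 bp, and chromosome 7 the widest, at 1295 bp. With lists of equal length the ratio thus spread more widely over the chromosomes than with all WT peaks. Counting error was also larger, since WT counts were smaller, on chromosome 13 163 instead of 615. Chromosomes 7 and 13 are the extremes of 19, so the wider spread is not read as greater unevenness. In the lists of other marks the mutant over WT ratios of peak counts on chromosomes 7 and 13 had no common order. They were 0.856 and 0.980 for H3K27ac, 0.948 and 0.967 for H3K4me3, 0.856 and 0.837 for H3K79me2, and 1.04 and 0.939 for H3K27me3.

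**Figure D1:**
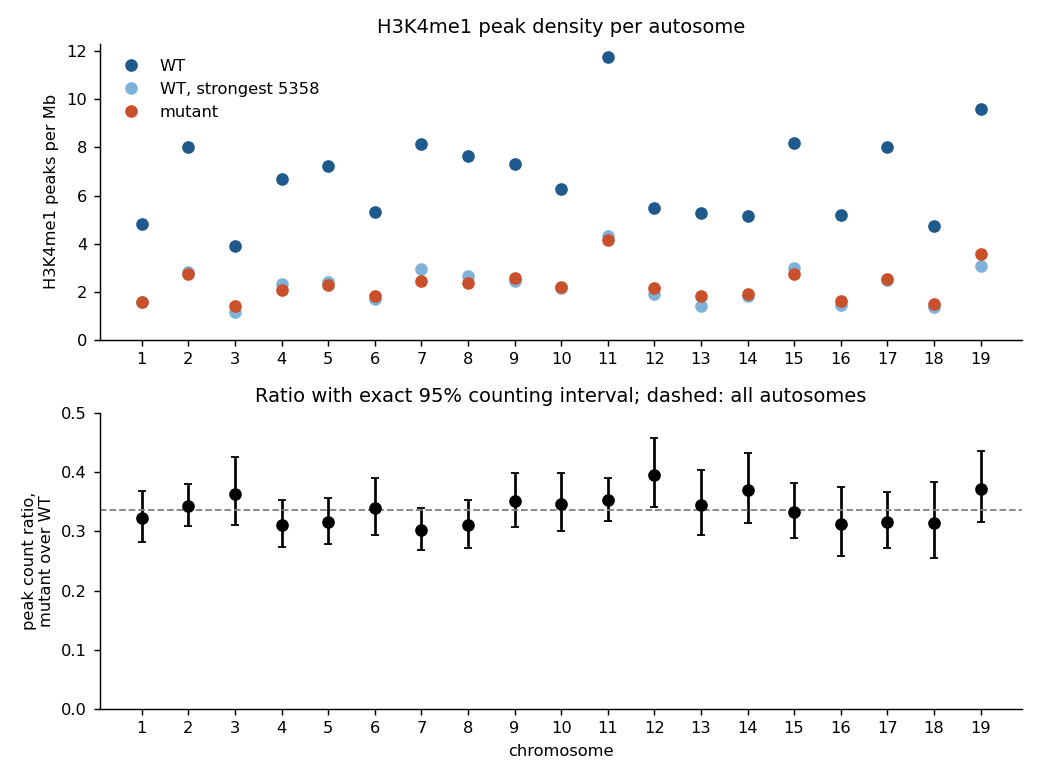
Upper panel, H3K4me1 peaks per Mb (y axis) on each autosome (x axis) for all WT peaks, the 5358 strongest WT peaks and the mutant peaks. Lower panel, ratio of peak counts, mutant over WT, with exact 95% intervals for counting error, and the autosomal ratio of 0.335 as a dashed line; only the interval of chromosome 12 lies wholly off the line.

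Chromosome X carried almost no H3K4me1 peaks in either list. WT had 7, with scores of 90.06 to 209.1, and the mutant had 0. The lists of other marks held many more X peaks, for instance 298 in WT and 257 in the mutant for H3K27ac. Whether chromosome X was filtered from the H3K4me1 lists is not known. The strongest X peak of WT spanned 166412811 to 166414333. All further values are for autosomes.

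At the scale of 1 Mb, the mutant H3K4me1 peaks lay largely in the same bins as the WT peaks. A bin is a window of 1 Mb, and peaks were placed by their centres. WT peaks were found in 1495 of 2416 bins (61.9%) and mutant peaks in 1170 (48.4%). Of the WT bins 23.9% (21.8 to 26.2) had no mutant peak, and these 358 bins held 1050 WT peaks, only 6.57% of the list. Conversely, 33 bins had mutant peaks alone, 35 peaks in all. The WT list is the longer one, and 227 bins with mutant peaks held none of the 5358 strongest WT peaks. With a score of at least 200 in both lists, 53.6% of WT bins had no mutant peak. Bins with more mutant than WT peaks numbered 60, which is 3.93% of the 1528 bins with a peak in either list. Bins of equal count numbered 82, and the other 1386 had more WT peaks.

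Grouped by their WT count, bins differed little in the ratio of counts. It was 0.371 (0.312 to 0.441) in bins of 1 or 2 WT peaks, 0.318 (0.292 to 0.346) in bins of 6 to 10, and 0.328 (0.297 to 0.363) in the 31 bins of 41 to 71. When bins were grouped by their mutant count, the ratio rose from 0.237 in bins with 1 mutant peak to 0.441 in bins with 11 to 30. Such a slope follows in part from grouping by the numerator. Grouping by the WT count, the denominator, can shift the ratio the other way, so neither series is read as a result. All 215 bins with 21 to 40 WT peaks and all 31 bins with more held a mutant peak. The densest 10% of bins held 46.3% of the WT peaks, 56.1% of the strongest WT peaks and 51.3% of the mutant peaks.

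The WT bins with the most peaks and no mutant peak were at chr4:139000001-140000000 and at chr18:36000001-37000000, with 18 WT peaks each. The best scores there were 356.8 and 392.5. The bin at chr8:90000001-91000000 followed with 14 WT peaks. The bins at chr2:59000001-60000000 and chr9:72000001-73000000 had 12 each. The best scores of these last 3 bins were 522.9, 380.4 and 422.7. In all 5 bins the best WT peak lay above the WT 75th percentile of 250.9. The best of 12 or more peaks would mostly do so, and nothing is read from it. In the opposite direction the excess was small. The largest was at chr5:76000001-77000000, with 4 mutant peaks and 1 WT peak. At chr9:26000001-27000000 there were 3 and 1. The one crowded bin among the first 5 was at chr9:50000001-51000000, with 12 mutant and 10 WT peaks. Over the other bins of this set, at chr7:79000001-80000000 and at chr9:95000001-96000000, there were 2 mutant peaks and 0 WT peaks each.

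Runs of consecutive WT H3K4me1 peaks without any mutant peak were mostly short, with a median of 3 peaks over 2488 runs, but 35 runs had at least 20 peaks. The longest held 53 WT peaks over 2.08 Mb at chr4:139046157-141127757. It contains most of the first bin named above. Only 2 mutant peaks lay in it, between WT peaks, with a best score of 96.84. A run of 38 WT peaks covered 4.63 Mb at chr7:134913538-139539300, with 6 mutant peaks between them. A run of 36 peaks lay at chr4:148668847-149750660, with a WT score of up to 941.2 and 1 mutant peak. At chr11:4089837-5423788 there were 30 WT peaks with 2 mutant peaks between them. At chr2:38394794-49328692 there were 29 WT peaks with 3 mutant peaks, spread over 10.9 Mb. These 5 runs thus held peaks of very different density, from 36 peaks in 1.08 Mb to 29 in 10.9 Mb.

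Runs of mutant H3K4me1 peaks without a WT peak were shorter, with a median of 1 and a maximum of 12. The longest covered 15.4 Mb at chr5:77381175-92738684. In that stretch 18 WT peaks lay between the 12 mutant peaks without touching them. The others lay at chr2:11435030-18611863 and at chr13:113999900-118002411, with 7 mutant peaks each. Here the WT list had 16 and 18 peaks, so none of these stretches was bare in WT. Scores of the mutant peaks in the run on chromosome 5 went from 90.23 to 184.8.

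H3K4me1 peaks were closer together in WT. The median gap from one peak to the next was 11842 bp (11227 to 12383) in WT and 39770 bp (35472 to 44000) in the mutant. Among the strongest 5358 WT peaks it was 30037 bp (27188 to 33517). The mutant median thus lay above that of the equally long WT list, which differs from the full WT list in both its length and its lowest score. With a score of at least 200 in both lists the WT median was 27446 bp and the mutant median 341326 bp. Gaps of at least 1 Mb numbered 524 in WT, 560 in the mutant and 523 among the strongest WT peaks. The longest WT gap measured 19.5 Mb, the longest mutant gap 21.9 Mb.

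At short range the equally long lists had similar shares of close neighbours, although their lowest scores differ, 208.3 in WT and 90.03 in the mutant. A neighbour within 5 kb was found for 54.9% (54.2 to 55.7) of WT peaks and for 42.3% (40.9 to 43.6) of mutant peaks. For the strongest WT peaks the share was 41.1% (39.8 to 42.5). With a score of at least 200 in both lists the shares were not alike, 41.9% in WT and 23.9% in the mutant. Within 1 kb a neighbour was found for 22.0% of mutant peaks, 19.0% of the strongest WT peaks and 29.7% of all WT peaks. Within 10 kb the order of the equally long lists had turned, with 51.2% of mutant and 52.0% of the strongest WT peaks. Within 50 kb the shares were 72.5% and 75.5%. Against the equally long WT list, the mutant list thus had slightly more very close neighbours and slightly fewer distant ones. Mutant peaks over the same WT peak also count as neighbours, and 82.1% of 446 gaps between such peaks were under 1000 bp. Their part in the shares was not tested. After merging within 1000 bp, 38.8% of all WT peaks and 27.5% of mutant peaks had a neighbour within 5 kb. Isolated peaks, with no other within 100 kb, made up 6.47% of the WT list, 19.0% of the mutant list and 17.0% of the strongest WT peaks.

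Clusters, defined as at least 3 peaks chained by gaps of up to 10 kb, were 1510 in the WT list and 395 in the mutant list. Of all WT peaks 47.2% (46.4 to 47.9) belonged to a cluster, and of all mutant peaks 30.7% (29.4 to 31.9). The strongest WT peaks formed 419 clusters with 32.3% (31.1 to 33.6) of their peaks. Clusters of equally long lists were therefore similar in number, although the lowest scores of these lists differ. Their median span was 13009 bp in the mutant and 18804 bp among the strongest WT peaks. With a score of at least 200 in both lists there were 454 WT and 44 mutant clusters. After merging within 1000 bp there were 1025 and 238. Clusters of at least 10 peaks numbered 111 in WT, 12 in the mutant and 7 among the strongest WT peaks. Several mutant peaks over the same WT peak count as separate members, as do several WT peaks under the same mutant peak. The largest mutant cluster held 4 mutant peaks over the same WT peak. The part of such peaks in the cluster counts was not tested.

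WT clusters were thinned more often than they were lost whole. Of the 1510 WT clusters 65.8% had a mutant peak at some of their peaks, 32.5% at none and 1.72% (26 clusters) at all. In 446 clusters just 1 WT peak had a mutant peak. A cluster has at least 3 peaks, so a mixed outcome is favoured by the definition. At least 3 mutant peaks lay over the peaks of 309 clusters, 20.5%. The strongest peak of a WT cluster had a mutant peak in 48.4% (45.9 to 51.0) of cases, and the other peaks of the clusters in 25.2% (24.1 to 26.3). Over all WT peaks it was 3681 of 15974. The share rose with score throughout the WT list, from 8.70% to 54.2% over 5 score groups, and the strongest peak is chosen by score. Inner peaks had one in 33.0% and the peaks at either end in 25.2% of cases. Their median scores were 190.3 and 166.5, and averaged over 5 equal score groups the shares were 28.2% and 23.8%.

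A WT peak with more WT peaks around it more often had a mutant peak. The share was 14.8% (13.8 to 15.8) for single WT peaks, 20.8% (19.4 to 22.3) for peaks in chains of 2, 25.7% in chains of 3 to 5, 31.4% in chains of 6 to 9 and 38.9% (36.4 to 41.4) in chains of 10 to 33. Median scores rose along the same order, from 144.3 to 210.9. Averaged over the 5 score groups the shares still rose, from 17.9% for single peaks to 30.1% for the largest chains. In the strongest score group they went from 42.3% to 65.9%. The rise ended at chains of 6 to 9 in the weakest group, which went from 12.3% there to 8.89% of 180 peaks in the largest chains, and in the middle group, which went from 21.1% to 19.6%. Crowded stretches also hold more mutant peaks that can overlap by position, a part that was not tested.

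A WT peak more often had a mutant peak when a close neighbour had one. Among 5810 pairs of adjacent WT peaks within 5 kb, the second had a mutant peak in 44.4% (42.1 to 46.8) of cases when the first had one and in 24.0% (22.7 to 25.4) when it had none. For 2936 adjacent peaks over 100 kb apart the shares were 17.5% (14.3 to 21.2) and 16.7% (15.2 to 18.2). The difference seen between close neighbours was thus not seen between distant ones. In 1959 of the close pairs, 33.7%, 1 peak of the pair had a mutant peak and the other did not, and in 792, 13.6%, both had one. The shares were not averaged over scores here, and scores were higher in larger chains. A mutant peak over both sides of a close pair can be the same peak.

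The same order held from the mutant side. Of the mutant H3K4me1 peaks 27.9% had no WT peak. A WT peak was found at 63.4% (61.5 to 65.2) of single mutant peaks and at 91.2% (88.3 to 93.5) of mutant peaks in chains of 6 to 14. Their median scores also differed, 128.7 and 159.6, and the shares were not averaged over scores here. Of the 395 mutant clusters, 84.8% touched one of the 1510 WT clusters, and 10 had no WT peak at all. Of the 419 clusters formed by the strongest WT peaks, 47.3% (42.4 to 52.2) touched a mutant cluster. Mutant peaks without a WT peak lay at a median of 7106 bp from the nearest WT peak, and 43.6% of them lay within 5 kb of one. WT peaks without a mutant peak lay at a median of 31993 bp from the nearest mutant peak, with 20.6% within 5 kb. These distances depend on the density of the other list, which was higher for WT.

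**Figure D2:**
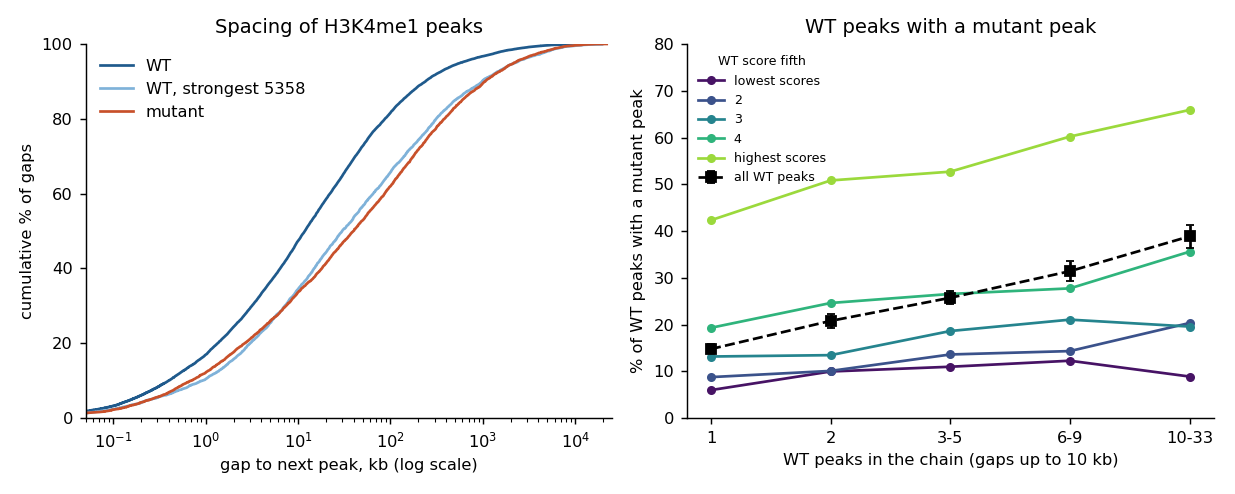
Left, cumulative percent of gaps between adjacent H3K4me1 peaks (y axis) up to each length in kb (x axis, log scale), where the mutant curve lies beside that of the 5358 strongest WT peaks. Right, percent of WT peaks that overlap a mutant peak (y axis) by the number of WT peaks in their chain (x axis), for each of 5 equal groups of WT scores and for all WT peaks (black squares, exact 95% interval), rising from 14.8% to 38.9% over all peaks.

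The named clusters show how unevenly the thinning fell on single stretches. The largest WT cluster had 33 H3K4me1 peaks at chr6:133988015-134107212, of which 14 had a mutant peak. At chr2:90317289-90410874, 16 of 26 WT peaks had a mutant peak. At chr11:117094391-117216856, it was 8 of 26, although the best WT score there was 2029. At chr14:120677779-120780188, it was 9 of 23. The last of the 5, at chr5:125583748-125674868, also had 23 WT peaks but only 2 with a mutant peak. Its WT peaks covered 47218 bp and the mutant peaks 3063 bp, with best scores of 828.3 and 146.7. Among these 5 clusters the share of WT peaks with a mutant peak thus ranged from 2 of 23 to 16 of 26.

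The largest mutant cluster went the other way. It had 14 H3K4me1 peaks at chr15:77628106-77680017, where WT had 7, and mutant peaks covered 35809 bp against 25367 bp in WT. Of its 14 peaks 10 had a WT peak. The other 4 stood side by side from 77639353 to 77655320 and covered 15400 bp of those 15968 bp. This stretch, chosen after its values were seen, falls between WT peaks that end at 77639057 and start again at 77655845. Its last peak, from 77649003 to 77655320, had the highest score of the whole mutant list, 1307. Mutant peaks with a score of at least 500 numbered 66, and only 2 of them had no WT peak, so this stretch was an exception among strong mutant peaks. Of the 1080 WT peaks with such a score, 266 (24.6%) had no mutant peak.

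In the other 4 mutant clusters WT peaks covered more bases than mutant peaks. At chr16:10961437-11020052 there were 13 mutant and 19 WT peaks. At chr12:81908574-81956031 there were 12 mutant and 9 WT peaks, of which the mutant peaks covered 16328 bp and the WT peaks 20290 bp. The cluster at chr14:26282251-26335907 had 11 mutant and 8 WT peaks over 26268 and 44649 bp. At chr7:71039582-71080139 there were 11 mutant and 10 WT peaks. The cluster of chromosome 14 includes a WT peak met by 5 mutant peaks, described among the split peaks.

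The score spectrum of the mutant H3K4me1 list fell off much faster than that of WT. The median score was 134.7 (132.6 to 136.6) in the mutant and 159.2 (157.8 to 161.4) in WT. Scores of at least 200 were reached by 20.1% (19.1 to 21.2) of mutant and 35.8% (35.03 to 36.5) of WT peaks, and scores of at least 500 by 1.23% and 6.76%. Scores under 100, close to the threshold, made up 16.7% of the mutant and 10.9% of the WT list. Counted within bands of score, the mutant over WT ratio fell steadily, from 0.513 at 90 to 100 to 0.262 at 200 to 300 and 0.0733 at 500 to 1000. From 1000 up there were 3 mutant and 221 WT peaks. These are counts over whole lists and not of matched peaks. By position, strong WT peaks had a mutant peak most often, 54.2% (52.4 to 55.9) in the highest of 5 equal score groups and 8.70% (7.75 to 9.73) in the lowest. In one-to-one pairs the mutant score was the lower in 81.6%.

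Widths differed less. The median H3K4me1 peak was 1218 bp wide in WT (1208 to 1227) and 1165 bp in the mutant (1155 to 1179). The narrowest 10% ended at 793 and 774 bp. The widest 10% began at 2551 and 2167 bp, and the widest 1% at 5772 and 4101 bp, so the lists parted in the wide tail. There were 482 WT peaks (3.02%) and 62 mutant peaks (1.16%) with 4000 bp or more. They held 11.2% and 4.18% of the covered length. With 8000 bp or more there were 43 and 3. With a score of at least 200 in both lists the WT median was 1973 bp and the mutant median 1983 bp.

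At like score the order of widths turned. Mutant peaks with scores of 90 to 100 had a median of 853 bp (832 to 878) against 810 bp (793 to 820) in WT. At scores of 200 to 300 it was 1711 bp (1673 to 1779) against 1575 bp (1560 to 1591). At 300 to 500 it was 2629 bp (2492 to 2753) against 2228 bp (2205 to 2256). In all 7 bands of score the mutant median was the wider, from 1.05 times at 90 to 100 to 1.25 times from 1000 up, where there were 3 mutant peaks. Width and score went together within each list, with a Spearman correlation over peaks of 0.84 in WT and 0.71 in the mutant. The same score need not mean the same enrichment in libraries of unknown depth.

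**Figure D3:**
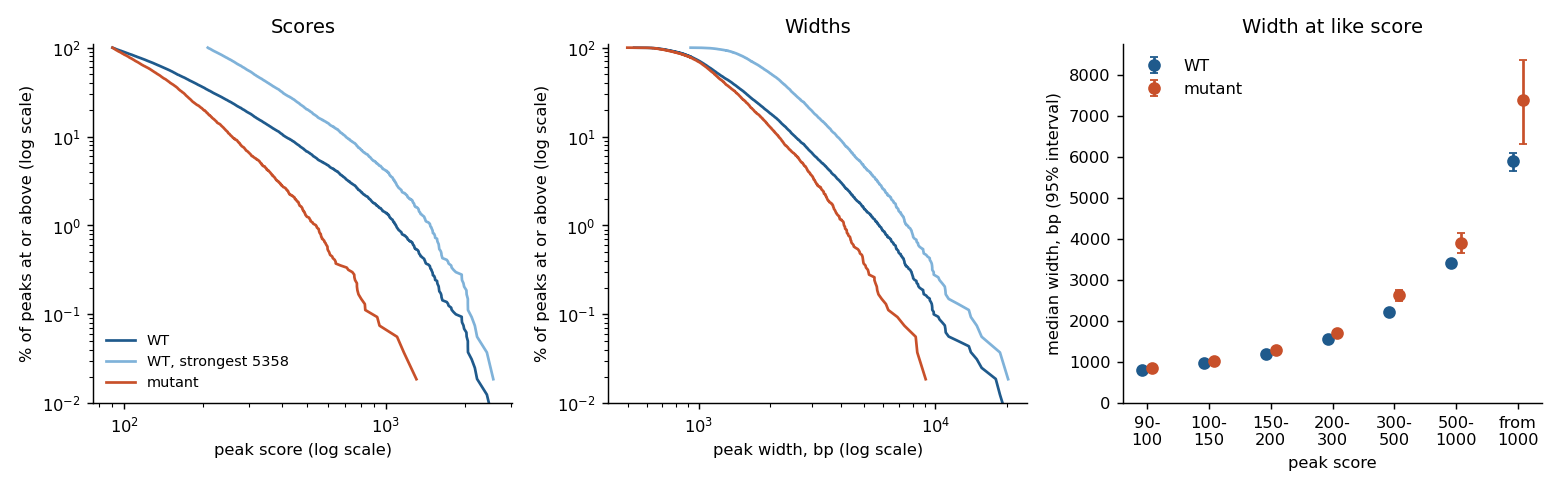
Left and middle, percent of H3K4me1 peaks (y axis, log scale) at or above each score and each width in bp (x axes, log scale) in WT, its 5358 strongest peaks and the mutant. Right, median width in bp with its 95% interval (y axis) of WT and mutant peaks in 7 bands of score (x axis); the mutant medians lie above those of WT, 1711 against 1575 bp at scores of 200 to 300.

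The widest peaks of each list lay mostly at sites of the other. The widest WT H3K4me1 peak, 20307 bp at chr2:26336983-26357289, had 6 mutant peaks over 78.8% of its length. The next were at chr14:26286748-26305497, chr5:34868765-34886763, chr10:80870396-80886084 and chr8:122347786-122362750. Mutant peaks covered 77.1%, 59.3%, 52.0% and 39.3% of these, in 5, 6, 3 and 3 pieces. None of the 5 widest WT peaks was thus a single peak in the mutant. The widest mutant peak had 9095 bp, at chr4:134284729-134293823, and WT covered all of it. The mutant peaks of 8253 and 7389 bp at chr2:165142456-165150708 and chr2:167764267-167771655, were also covered in full. The mutant peaks at chr7:132700548-132708927 and at chr14:41767002-41773909 each met a pair of WT peaks, over 7920 of 8380 bp and 6757 of 6908 bp.

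Splitting was common among wide WT peaks and rare among narrow ones. Of 3681 WT H3K4me1 peaks with a mutant peak, 378 overlapped at least 2, which is 10.3% (9.31 to 11.3). The reverse, a mutant peak over at least 2 WT peaks, held for 256 of 3865, 6.62% (5.86 to 7.45). The median split WT peak spanned 3890 bp, the median WT peak with 1 mutant peak 1638 bp. By width, 1.53% of shared WT peaks under 1000 bp were split, 7.21% of those from 2000 to 3000 bp, and 57.9% (51.0 to 64.5) of those of at least 5000 bp. Joining also rose with the width of the mutant peak, from 2.85% under 1000 bp to 13.7% (10.7 to 17.2) from 2000 to 3000 bp. At an overlap of at least 1 bp it was thus more frequent than splitting in each width class under 3000 bp. From 3000 to 5000 bp it was less so, at 18.5% against 26.0%. Mutant peaks of at least 5000 bp joined WT peaks in 4 of 18 cases. The pooled shares therefore depend on the widths in each list, and they also moved with the overlap rule. With an overlap of at least 50% of the shorter peak, splitting fell to 7.77% and joining to 1.54%. The width classes are given for the 1 bp rule only. The WT list was also denser, with 6.66 against 2.23 peaks per Mb, and the part of density in joining was not tested. The rate at which wide peaks had any partner was also high: 88.5% (83.8 to 92.2) of WT peaks of at least 5000 bp had a mutant peak, and 9.92% of those under 1000 bp.

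The pieces of a split peak stood close together. The median gap between mutant pieces was 337 bp (277 to 384), and 82.1% of 446 gaps were under 1000 bp. Mutant pieces covered a median of 71.9% of the split WT peak. The gap between WT pieces under 1 mutant peak was 153 bp (129 to 175). At chr2:26336983-26357289, the 6 mutant pieces had scores of 109.7 to 563.1 and widths of 1610 to 3674 bp. At chr5:34868765-34886763, the WT peak had a score of only 197.4 and the best of its 6 mutant pieces 255.9. At chr14:26286748-26305497, the best of 5 pieces, from 26289336 to 26295509, was 6174 bp wide. At chr9:61223494-61237342 and at chr15:77626566-77639057, the WT peak met 4 mutant pieces, the latter at the left edge of the largest mutant cluster. Split WT peaks had a median score of 685.2, against 249.0 for WT peaks with 1 mutant peak. The case on chromosome 5 was thus a low one among split peaks, though above the WT median of 159.2.

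Joining involved gaps of different lengths. The mutant peak at chr2:167585640-167590877 met 3 WT peaks. The first of them ended at 167587108 and the middle one began at 167588500, while the middle one ended at 167590804 and the last began at 167590809. On chromosome 9 a mutant peak from 90151078 to 90155087, with a score of 593.4, bridged WT peaks of 1164, 1538 and 1327 bp with scores of up to 260.6. At chr2:165705694-165709536 a mutant peak met WT peaks of 2713, 1544 and 1009 bp. The case on chromosome 9 was the one of the 3 where the mutant peak had a higher score than each WT peak under it.

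Most shared sites were simple pairs, and in these the mutant H3K4me1 peak was usually the narrower. Of 3419 groups of touching peaks, 2901 (84.8%) were 1 WT and 1 mutant peak. The WT peaks of these pairs had a median width of 1702 bp (1654 to 1756) and the mutant peaks 1241 bp (1215 to 1264). The median ratio within a pair was 0.767 (0.752 to 0.785). The mutant peak was narrower in 75.1% (73.5 to 76.7) of pairs. It was narrower by at least 1.5-fold in 37.6% and wider by at least 1.5-fold in 3.83% of all pairs. The ratio was below 1 on every autosome, from 0.715 on chromosome 8 to 0.841 on chromosome 19. Limited to the 273 pairs whose scores lay within 10% of each other, a choice made after seeing the data, the ratio was 1.03 (0.995 to 1.06). Of these pairs 45.4% (39.4 to 51.5) were narrower in the mutant. Width within a pair thus moved with score.

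Trimming took a similar length from either edge. The left edge of the mutant peak lay a median of 148 bp (131 to 169) inside the WT edge and the right edge 175 bp (154 to 194). The mutant peak lay wholly inside the WT peak in 42.2% (40.4 to 44.01) of pairs, the WT peak inside the mutant peak in 7.82%, and in 49.98% (48.1 to 51.8) they were staggered. Staggered pairs had a ratio of 0.913 and nested mutant peaks one of 0.574. Within nested pairs, the larger of the 2 cuts made up a median of 75.8% of the loss. The larger cut is by definition the greater share, so no uneven trimming is read from this. The centres of a pair lay a median of 264 bp apart. The common part covered a median of 96.4% of the mutant peak and 67.0% of the WT peak.

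The ratio depended on which list set the width class. In 5 equal groups by WT width it fell from 1.11 (1.07 to 1.14) for the narrowest to 0.490 (0.470 to 0.519) for the widest WT peaks. In 5 groups by mutant width it rose from 0.654 to 0.840 (0.809 to 0.866). A slope of either sign arises when pairs are sorted by 1 of the 2 widths in the ratio, so neither slope is read as a result. In the groups by mutant width the ratio was below 1 throughout, and in those by WT width it was so in 4 of 5. By cluster size the ratio was 0.834 (0.805 to 0.855) for single WT peaks and 0.693 (0.641 to 0.730) in chains of 10 to 33, whose WT peaks were also wider (a median of 2325 against 1397 bp).

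**Figure D4:**
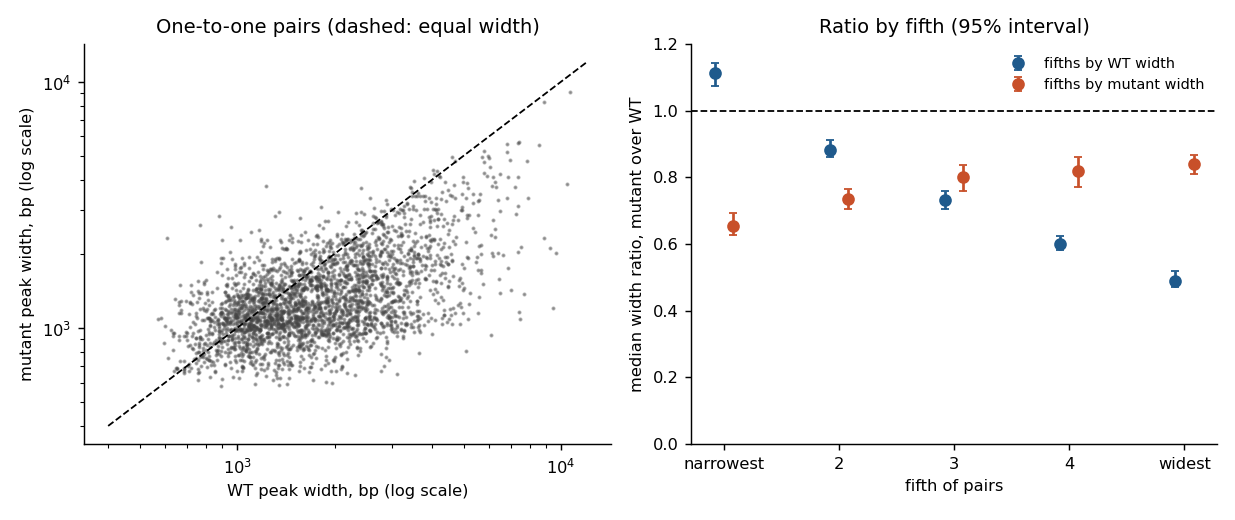
Left, mutant against WT peak width in bp (both axes log scale) for the 2901 one-to-one pairs, most of which lie under the dashed line of equal width (75.1% narrower in the mutant). Right, median width ratio, mutant over WT, with its 95% interval (y axis) in 5 equal groups of pairs by WT width and by mutant width (x axis); the slopes run in opposite directions.

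The pairs with the largest loss of width were wide WT peaks, with scores of 494.4 to 2430, that kept a narrow mutant peak. On chromosome 17 the WT peak from 6944014 to 6953481 (9468 bp, score 1132) kept a mutant peak of 1207 bp near its right end, from 6951874 to 6953080. On chromosome 11 the WT peak from 97295801 to 97305051, with a score of 2430, kept 2115 bp in its interior, from 97299418 to 97301532. Also on chromosome 11, a WT peak from 32449937 to 32459612 kept 2019 of 9676 bp. At chr14:26669866-26680276 the mutant had 3827 of 10411 bp, and at chr3:87947338-87956207 it had 2329 of 8870 bp. The mutant peak thus lay toward one end in some pairs and well inside in others.

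Gains of width were smaller and started from WT peaks with scores of 94.49 to 245.9. On chromosome 9 a WT peak of 1225 bp from 70501845 to 70503069 (score 245.9) faced a mutant peak of 3787 bp from 70499896 to 70503682 (score 833.2). Also on chromosome 9, a WT peak of 877 bp from 32318101 to 32318977 faced one of 2847 bp. On chromosome 17 there was a pair of such sites. The WT peaks from 71645219 to 71645988 (770 bp) and from 71609522 to 71610482 (961 bp) faced mutant peaks of 2625 and 2568 bp. On chromosome 1 a WT peak from 80332073 to 80332679 (607 bp, score 94.49) faced a mutant peak of 2328 bp (score 372.9). The largest gain was 2562 bp and the largest loss 8261 bp.

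Score percentiles within each list named some of the same sites. The WT peak on chromosome 1 just described stood at percentile 5.40 of the WT list, and its mutant partner at 96.5 of the mutant list. On chromosome 17 the site that starts at 71645219 in WT stood at 12.7 and 97.6. On chromosome 3 the WT peak from 21851167 to 21851831 stood at 2.44 and its partner at 92.6. In the other direction, WT peaks at chr14:26310372-26318045, chr11:98813537-98817127 and chr15:101196854-101204308 stood at 99.3, 97.6 and 99.9. Their mutant partners stood at 0.765, 1.42 and 4.27. On chromosome 11 the pair shared only 147 bp. The lists differ in length, so percentiles place a peak within its own list and are not a measure of change.

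**Figure D5:**
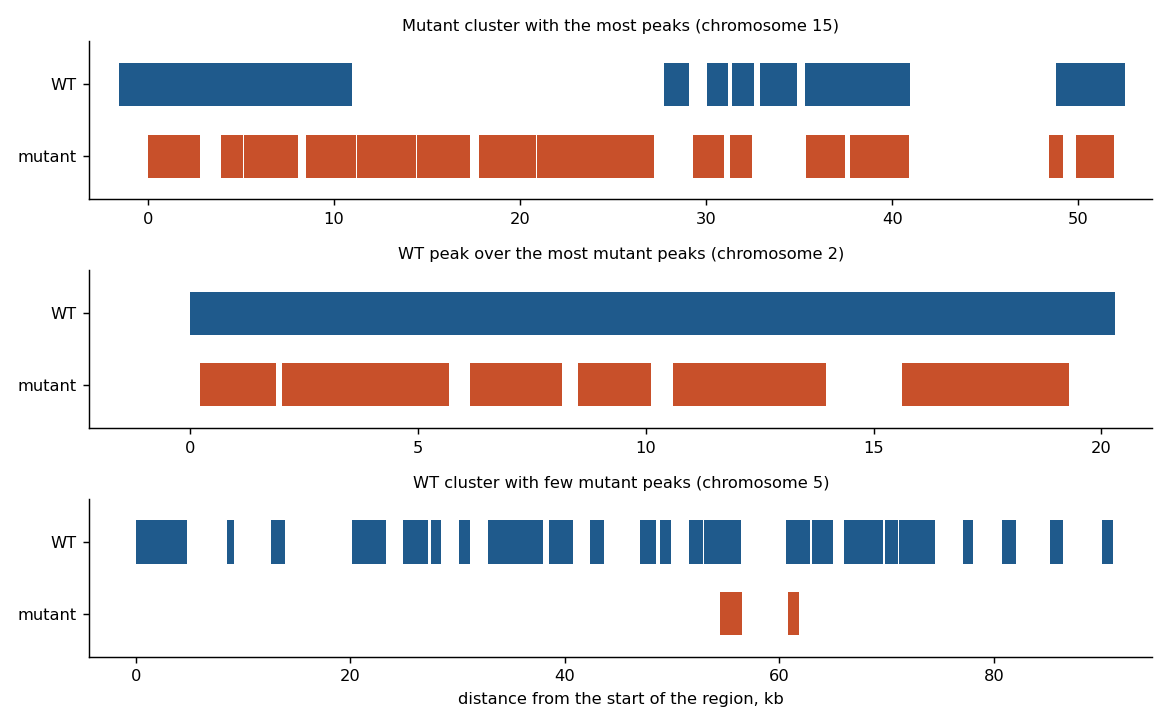
H3K4me1 peaks of WT (upper row, blue) and mutant (lower row, orange) as boxes to scale along 3 regions, with the distance from the start of each region in kb on the x axis. The top region shows 4 adjacent mutant peaks where WT has a gap, the middle one a WT peak of 20307 bp met by 6 mutant peaks, and the bottom one a cluster of 23 WT peaks with 2 mutant peaks.

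Counted in bases, whole peaks outweighed trimming. WT H3K4me1 peaks covered 24.5 Mb of autosomes, of which 16.2 Mb (66.2%) lay in WT peaks without a mutant peak. Another 3.17 Mb (13.0%) lay in shared WT peaks but outside the mutant peak, and 5.11 Mb (20.9%) were common to both lists. Of the WT bases not covered in the mutant, 83.6% thus belonged to missing peaks and 16.4% to trimmed or split ones. Within shared WT peaks, 38.3% of the bases lay outside any mutant peak. Mutant peaks covered 7.34 Mb, with 69.6% common, 9.94% in shared mutant peaks beyond the WT edges and 20.4% in mutant peaks without a WT peak. Mutant peaks without a WT peak had a median width of 934 bp, while shared mutant peaks had 1284 bp, and 26.0% of them had a score under 100, against 13.1%.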

How the data were processed

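The lists used are those the authors deposited, and their only measured value is a score per peak. Per the submitters' processing notes, Bowtie, MACS, MACS2, deepTools and mm9 were used, without versions or roles. Per the file contents, H3K4me1 peaks carry MACS names, and each list belongs to 1 sample. Settings of the peak caller and the use of the input are not given in the sources used here. Per the labels, fragments were selected at about 200 to 500 bp and amplified for 10 cycles of PCR. Depth is unknown, because a peak list holds no read count. Groups come from the sample titles. Peaks overlapped when they shared at least 1 bp, and a one-to-one pair had no other partner. The 8 lists of other marks gave positions only, for chromosome spans and counts. The strongest WT peaks are the 5358 autosomal ones with the highest scores. Coordinates count from 1 on mm9.

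The peaks and lists were chosen with earlier results of these data known. Named regions followed a rule: per list the 5 widest peaks and 5 clusters with most peaks; the 5 longest WT and 3 longest mutant runs without a partner; the 5 most split WT and 3 most joining mutant peaks; the 5 pairs with the largest width loss and gain; the 5 bins of 1 Mb with most WT peaks and 0 mutant peaks and the 5 with the largest mutant excess; the 3 pairs with the largest rise and fall of score percentile. No test was possible with 1 library per genotype. Computation ran in Python 3.11.15, with scipy 1.17.1 for intervals, numpy 2.4.6 for arrays and matplotlib 3.10.9 for plots, and the overlap code was tested on simulated data. Alternatives were other score thresholds, equal list lengths, merging, overlap, cluster, bin and neighbour settings.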

Additional observations from a re-analysis of the deposited data

How the results depend on the processing

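No paired analysis was possible because each genotype had 1 library. Of 91 recomputed values, 36 stayed within the counting interval (or within 1.5 times for counts), 52 moved and 3 crossed the value of no difference. Of these, the highest chromosome ratio did so by construction. The others were the values for pairs of like score, whose intervals held no difference. With chromosome X included, and with a cluster gap of 5000 bp, every recomputed value stayed within the counting interval or the limit for counts.

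With a score of at least 100, the count ratio was 0.314. Median spacing was 13003 bp (WT) and 47099 bp (mutant), the share with a neighbour within 5 kb 53.3% and 40.2%, median width 1293 and 1239 bp, and the share of WT bins without a mutant peak 27.4%. With a score of at least 200, the count ratio was 0.189, from 0.126 (chromosome 13) to 0.264 (chromosome 12). Spacing was 27446 and 341326 bp, the neighbour share 41.9% and 23.9%, clusters 454 and 44, median width 1973 and 1983 bp, WT bins without a mutant peak 53.6%, pairs narrower in the mutant 77.5% and split WT peaks 6.17%.

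With lists of equal length the count ratio was 1 by construction and the chromosomes ran from 0.830 to 1.30. The highest cannot then lie below 1, so its change of direction was fixed in advance. WT spacing was 30037 bp, the WT neighbour share 41.1%, WT clusters 419, WT median width 2032 bp, WT bins without a mutant peak 12.7%, the width ratio 0.642, pairs narrower 88.2%, split WT peaks 15.2% and joining mutant peaks 2.76%. After merging within 1000 bp the count ratio was 0.355, spacing 20024 and 63574 bp, the neighbour share 38.8% and 27.5%, mutant clusters 238, widths 1309 and 1199.5 bp, the width ratio 0.697, pairs narrower 77.9%, split WT peaks 6.81% and joining mutant peaks 0.894%.

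With an overlap of at least 50% of the shorter peak, 7.77% of WT peaks were split and 1.54% of mutant peaks joined WT peaks. The neighbour share within 20 kb was 77.0% and 60.0%. WT bins without a mutant peak were 33.3% at 500 kb and 16.0% at 2 Mb. Pairs narrower by at least 10% made up 64.3%. Between pairs of like score, an alternative chosen after seeing the data, the width ratio was 1.03 (0.995 to 1.06). The narrower share was 45.4% (39.4 to 51.5). Both intervals held no difference, so the narrowing was not seen there and no reversal is read. The causes were not tested, except that shorter lists by construction widen the spacing.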
